A study of Homo sapiens with 6 samples.

Results

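The genes described here are 44 genes of DNA replication: those that mark and load origins, unwind and copy the fork, and supply nucleotides and histones for S phase. They were chosen by name, by a rule that uses no measured value, but earlier results of these data were known when the list was made. Each gene was read by its brightest probe set, judged by the mean of all arrays. A probe set is a group of short probes for one transcript, and only probe sets that the platform annotation pairs with a single gene were used. All 44 were measured, by 118 probe sets, among 18132 genes in all.

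BCPAP is a cell line from a human papillary thyroid carcinoma. Its cells received lentivirus that carried a short hairpin RNA targeting CSF2, which encodes the secreted growth factor GM-CSF (shCSF2), or a non-targeting hairpin (shCtrl). Both groups were therefore transduced, and both were selected with puromycin from 48 hours on, for 7 days. Each group held 3 Affymetrix PrimeView arrays of total RNA, which the labels call biological replicates; the sources used here do not give the number of hairpins or clones behind a group. The 2 groups were compared to find which transcripts differ when CSF2 is targeted.

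The thyroid transcription factor genes PAX8 (mean log2 value 8.07 in shCSF2 and 8.11 in shCtrl cells) and NKX2-1 (9.37 and 9.78, which fell by 0.42) were well above the median gene level of 6.28, whereas the thyroglobulin gene TG (4.58 and 4.61) and the thyrotropin receptor gene TSHR (3.88 and 3.86) were below it. Of 6 epithelial markers the keratin genes KRT7, KRT8 and KRT18 were above that level and KRT19 (mean over all arrays 4.08), EPCAM (5.68) and CDH1 (3.57) below it, and KRT8 fell (-0.26 ± 0.05). The leukocyte gene PTPRC was near the low end of the scale in both groups (2.33 and 2.35). However, the leukocyte gene CD79A (mean over all arrays 6.55) and the endothelial gene CDH5 (6.55) were above the median gene level. At or above that level were 1 of 5 leukocyte, 1 of 4 endothelial and 0 of 4 fibroblast markers. Of 5 leukocyte, 4 endothelial and 4 fibroblast markers none rose, and 1, the collagen gene COL1A2, fell. No probe set was paired with CSF2, so the knockdown itself was not checked here. The 3' minus 5' signal of the ACTB control, a sign of RNA integrity, was 0.61 ± 0.05 in shCSF2 and 0.59 ± 0.05 in shCtrl arrays (log2, SD, n = 3, exact two-sided permutation p = 0.6), and that of GAPDH was -0.01 ± 0.01 and -0.03 ± 0.01 (p = 0.1, the smallest that 3 arrays against 3 allow). The part of the GAPDH difference in the results was not tested.

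Replication begins when the origin recognition complex, with CDC6 and CDT1, loads the ring of MCM2 to MCM7 onto DNA. In S phase CDC45 and the GINS complex join that ring to form the active helicase, DNA polymerase alpha with its primase starts each strand, and the sliding clamp PCNA, placed by replication factor C, holds the copying polymerases on DNA. Many of these genes are transcribed at the G1/S boundary under E2F factors, and their levels differ between dividing and resting cells. In bulk RNA, a larger share of cells in S phase and more RNA per cell cannot be told apart.

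Of the 44 genes, 24 rose and 5 fell in shCSF2 cells at an adjusted p under 0.05 (limma, adjusted over all genes by Benjamini-Hochberg), and 15 did not pass. Among all genes tested 32.7% passed, 16.7% higher and 16.0% lower, against 54.5% higher and 11.4% lower among the replication genes. The changes were small. The largest rise was 1.61-fold (ORC5), the largest fall 1.28-fold (MCM6), and the median log2 fold change was 0.13, against -0.03 over all genes.

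Well expressed genes passed more often, and 42 of the 44 lay at or above the median gene level. Among all genes at or above it, 28.3% were higher and 22.4% lower; among these 42 replication genes, 54.8% were higher (23) and 11.9% lower (5). The 3 shCSF2 arrays lay entirely above the 3 shCtrl arrays in 26 of the 44 genes and entirely below them in 9, where 22.1% and 24.6% of all genes did so. The shares without overlap are over genes of every level, not only well expressed ones. All shares given here describe the list and were not tested as a set. Each shCSF2 array showed the shift. The median deviation of the 44 genes from their shCtrl means was 0.12, 0.14 and 0.13 in the shCSF2 arrays. In the shCtrl arrays it was -0.01, -0.01 and 0.02, which is small by construction, as those arrays set the means. The shCSF2 deviations restate the median log2 fold change array by array.

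**Figure D1:**
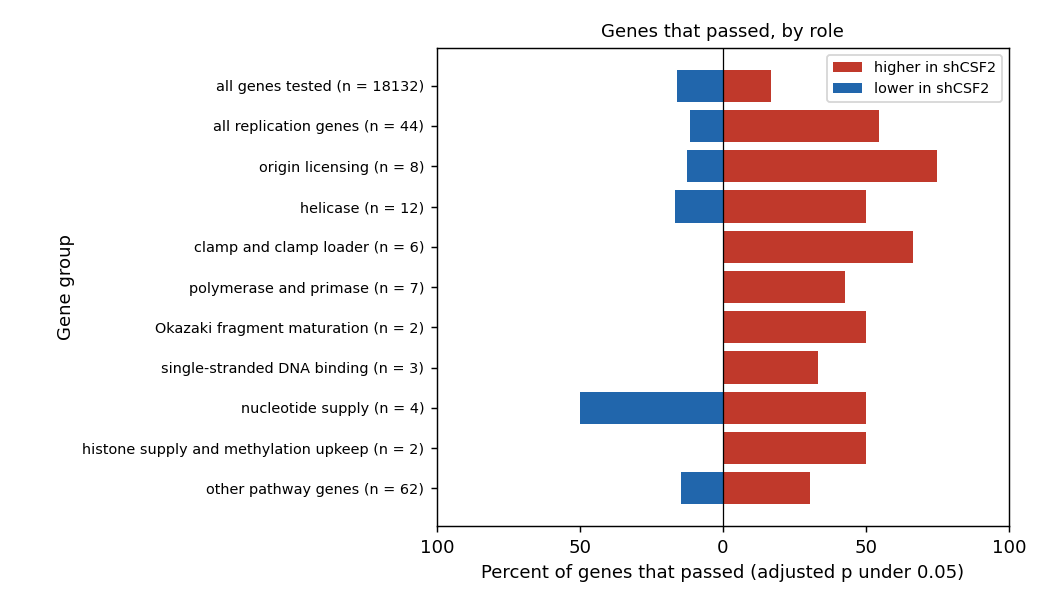
Percent of genes that passed (adjusted p under 0.05) in each role, higher in shCSF2 to the right and lower to the left, with the number of genes measured in brackets. Origin licensing had 6 of 8 genes higher, nucleotide supply had 2 higher and 2 lower, and all genes tested stood at 16.7% and 16.0%.

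Promoter sequence is shown first for the genes on which the account turns: ORC5 and PCNA, which rose, MCM6, which fell most, and MCM3 and MCM7, helicase subunits that did not pass. PCNA was added to these with its value known. Each sequence is the 250 bases before the gene's start, read 5′ to 3′ on the gene's strand, from RefSeq (GRCh38.p14). Capitals mark matches to the E2F motif, searched on both strands as TTTCCCGC, TTTCGCGC, TTTGCCGC and TTTGGCGC.
ORC5, chr7:104208014-104208263, minus strand: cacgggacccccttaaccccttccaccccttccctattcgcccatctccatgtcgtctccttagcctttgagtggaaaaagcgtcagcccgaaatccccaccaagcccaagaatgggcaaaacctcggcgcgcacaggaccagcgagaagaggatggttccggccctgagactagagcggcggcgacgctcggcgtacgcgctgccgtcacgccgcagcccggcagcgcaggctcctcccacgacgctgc
PCNA, chr20:5126623-5126872, minus strand: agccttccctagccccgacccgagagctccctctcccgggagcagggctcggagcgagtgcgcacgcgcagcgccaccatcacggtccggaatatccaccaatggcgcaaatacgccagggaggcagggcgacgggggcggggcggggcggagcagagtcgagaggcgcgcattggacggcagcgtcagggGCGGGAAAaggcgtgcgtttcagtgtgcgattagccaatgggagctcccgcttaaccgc
MCM6, chr2:135876444-135876693, minus strand: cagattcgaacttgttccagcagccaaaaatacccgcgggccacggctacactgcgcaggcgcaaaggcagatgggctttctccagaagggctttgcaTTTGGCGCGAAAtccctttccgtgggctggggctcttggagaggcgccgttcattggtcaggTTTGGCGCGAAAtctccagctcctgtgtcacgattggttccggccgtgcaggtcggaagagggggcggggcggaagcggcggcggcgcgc
MCM3, chr6:52284743-52284992, minus strand: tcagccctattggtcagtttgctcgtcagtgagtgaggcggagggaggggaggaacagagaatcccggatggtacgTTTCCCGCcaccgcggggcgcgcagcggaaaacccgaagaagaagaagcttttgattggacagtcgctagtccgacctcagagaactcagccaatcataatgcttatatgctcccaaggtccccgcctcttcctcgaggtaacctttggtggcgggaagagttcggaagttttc
MCM7, chr7:100101398-100101647, minus strand: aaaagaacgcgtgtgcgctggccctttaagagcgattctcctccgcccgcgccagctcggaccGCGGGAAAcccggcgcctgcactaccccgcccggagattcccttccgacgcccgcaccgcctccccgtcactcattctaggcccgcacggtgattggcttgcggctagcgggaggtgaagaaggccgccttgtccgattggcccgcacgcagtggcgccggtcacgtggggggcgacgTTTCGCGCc

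MCM6 held 4 matches at 2 places, because at each place TTTGGCGC on the gene's strand overlaps TTTCGCGC on the other strand, which reads GCGCGAAA here. The places lie 141 to 152 and 79 to 90 bases before the start. MCM7 held matches at 2 places and MCM3 and PCNA at 1 each, while ORC5 held none. MCM3 and MCM7 were chosen because they hold the motif, so these promoters do not bear on how it relates to the direction of change.

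RefSeq promoters were found for 38 of the 44 genes, all but MCM4, MCM5, GINS4, POLD3, RPA2 and RPA3. The E2F motif was in 13 of the 38 (34.2%), and in 2.79% of 27305 promoters of the same length (3.79% of the 14425 whose gene was measured). It was in 6 of 20 promoters of genes that rose, 2 of 5 of genes that fell and 5 of 13 of genes that did not pass. The 6 were those of GINS2, PCNA, RFC3, POLA1, POLA2 and TYMS, and the 2 were those of MCM6 and ORC3. The CCAAT box (CCAAT) was in 57.9% of the 38, against 33.0% of all promoters and 34.6% of those of measured genes. The GC box (GGGCGG) was in 68.4%, against 42.3% and 57.2%. The cell cycle homology element of mitotic genes (TTTGAA) was in 1 of the 38, that of RRM1, against 13.6% and 10.7%. A match shows only that these letters stand in the window.

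Of the 8 origin licensing genes, 6 rose and 1 fell; their median was 0.30 on the log2 fold change scale. ORC5, an ATPase-fold subunit of the recognition complex, had log2 values of 7.44, 7.35 and 7.51 in the shCSF2 arrays and 6.70, 6.77 and 6.76 in the shCtrl arrays. Its lowest shCSF2 array was thus far above its highest shCtrl array. The log2 fold change was 0.69 ± 0.05 (SE, adjusted p = 0.000122 by limma), and all 3 of its probe sets rose, by 0.55 to 0.69.

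ORC2, a core subunit (0.46 ± 0.04), and ORC4 (0.40 ± 0.03) also rose by all 3 of their probe sets, between 0.40 and 0.56. ORC6, the smallest subunit (0.30 ± 0.04), and ORC1, the subunit whose protein comes and goes with the cell cycle (0.24 ± 0.04), rose by the single probe set each had.

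ORC3 was the exception. Its values were 8.66, 8.70 and 8.70 in shCSF2 and 8.88, 8.91 and 8.85 in shCtrl arrays, and the groups did not overlap. The log2 fold change was -0.19 ± 0.03 (limma adjusted p = 0.00554). Of its 7 probe sets 6 fell, and the seventh, at a mean log2 value of 4.23, had -0.22 and did not pass. Subunits of one complex therefore passed in opposite directions, ORC3 lower and ORC1, ORC2, ORC4, ORC5 and ORC6 higher.

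The MCM loaders CDC6 and CDT1 did not pass alike. CDC6, the ATPase that helps load the ring, had values of 8.62, 8.72 and 8.71 in shCSF2 and 8.35, 8.37 and 8.41 in shCtrl arrays, and rose by 0.31 ± 0.04. CDT1, its partner in loading, did not pass (-0.02 ± 0.04), with 7.53, 7.62 and 7.54 against 7.55, 7.58 and 7.61. One of the other CDT1 probe sets passed with 0.35 and another had -0.11, so the change of this gene depends on the probe set read.

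**Figure D2:**
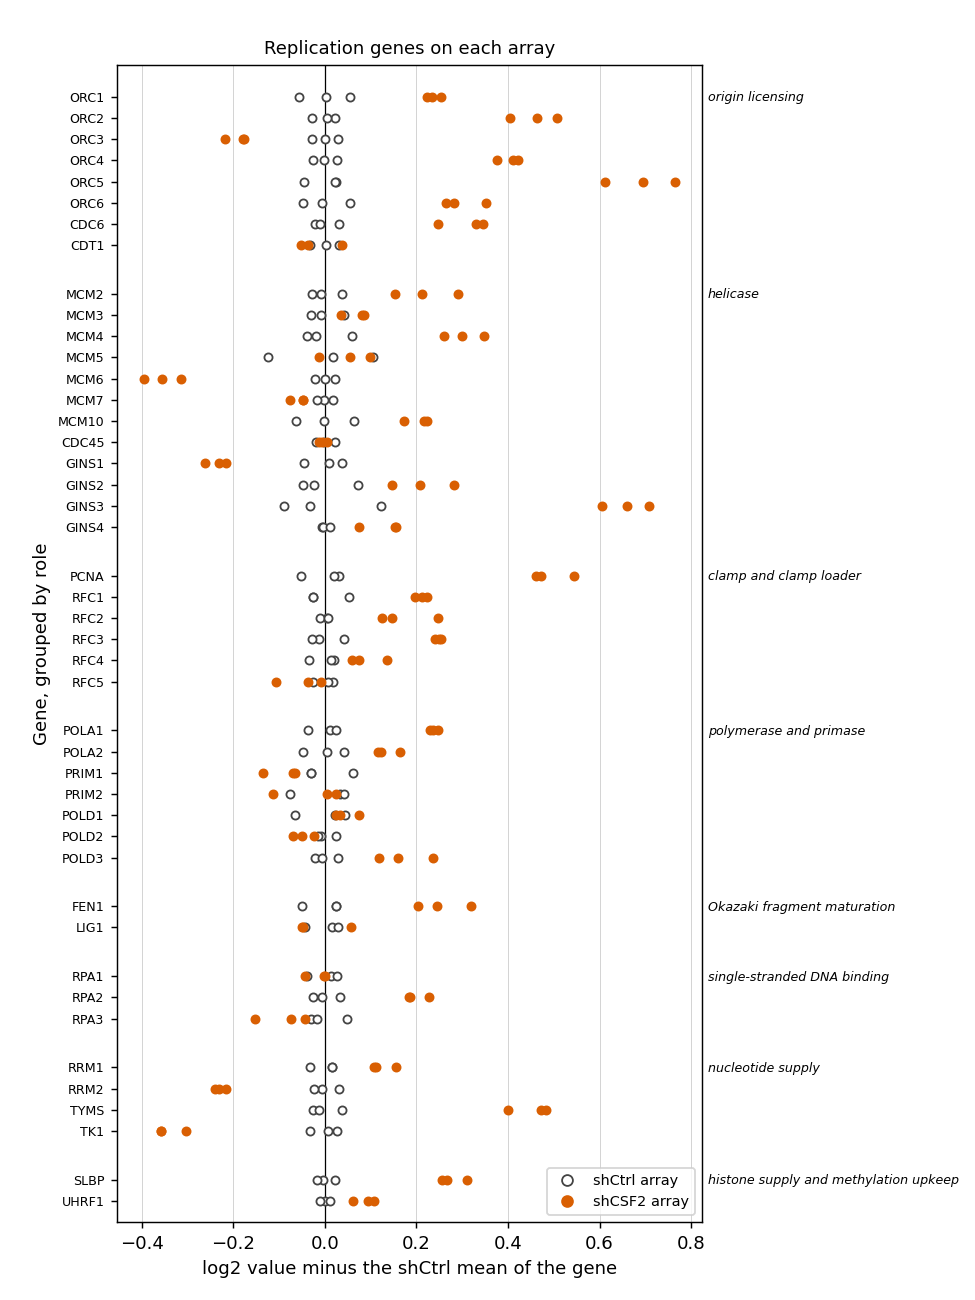
Log2 value of each of the 44 genes on each array, minus the mean of the gene's 3 shCtrl arrays, grouped by role; filled points are shCSF2 and open points shCtrl arrays. ORC5 and GINS3 stand farthest to the right (0.69 and 0.66 in the mean) and MCM6 and TK1 farthest to the left (-0.36 and -0.34).

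Among 12 helicase genes 6 rose and 2 fell, with a median of 0.10. The 6 subunits of the MCM ring did not move alike. MCM4 had 9.17, 9.21 and 9.13 in shCSF2 and 8.85, 8.92 and 8.83 in shCtrl arrays. Its log2 fold change was 0.30 ± 0.04, and all 5 of its probe sets rose. MCM2 rose by 0.22 ± 0.05, and by all 4 of its probe sets (0.22 to 0.28).

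MCM6 went the other way in the same cells. Its values were 7.71, 7.63 and 7.67 in shCSF2 and 8.03, 8.01 and 8.05 in shCtrl arrays, so each shCSF2 array was below each shCtrl array. The log2 fold change was -0.36 ± 0.04 (limma adjusted p = 0.000502), and its 3 probe sets gave -0.36 to -0.33, all past the threshold. One of them was dim (mean 3.74) and passed narrowly (limma adjusted p = 0.0459). MCM3 (0.07 ± 0.04), MCM5 (0.05 ± 0.06) and MCM7 (-0.06 ± 0.03) did not pass. For MCM7 the 3 shCSF2 arrays (10.53, 10.50 and 10.53) still lay below the 3 shCtrl arrays (10.59, 10.57 and 10.56), and none of its 4 probe sets passed. MCM3 had 1 of 4 probe sets past the threshold (0.19), and MCM5, at a mean of 5.68, was below the median gene level.

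MCM10, which helps to switch the loaded helicase on, rose by 0.20 ± 0.04 with all 3 probe sets higher, up to 0.37. CDC45, the helicase cofactor, had values of 6.74, 6.73 and 6.75 against 6.76, 6.72 and 6.74 and did not pass (-0.00 ± 0.03). Another probe set of CDC45 rose by 0.22.

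The 4 GINS genes encode one tetramer, and they split. GINS3 had 6.02, 5.98 and 5.92 in shCSF2 and 5.44, 5.23 and 5.28 in shCtrl arrays. Its mean lay below the median gene level, and it rose by 0.66 ± 0.06 (limma adjusted p = 0.000336), a 1.58-fold difference. A single probe set reads GINS3.

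GINS1 had 9.01, 9.04 and 9.05 in shCSF2 and 9.22, 9.28 and 9.31 in shCtrl arrays, and fell by 0.24 on the log2 scale (-0.24 ± 0.04, adjusted p = 0.00310 by limma). Of its 3 probe sets 2 passed as lower, and the third had -0.10. GINS2, also read by a single probe set, rose by 0.21 ± 0.05, and GINS4 passed narrowly (0.13 ± 0.04, limma adjusted p = 0.0368). The call of GINS2 was lost without shCSF2 replicate 1, shCtrl replicate 1 or shCtrl replicate 2, where its log2 fold change was 0.18, 0.19 and 0.20. GINS4 lost its call when any array other than shCSF2 replicate 3 was left out (0.11 to 0.13), and none of its probe sets passed when each was tested on its own. With all 4 averaged, the GINS4 log2 fold change was 0.085.

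For the clamp and its loader, 4 of 6 genes rose and none fell. PCNA, the sliding clamp, had 10.72, 10.79 and 10.71 in shCSF2 and 10.20, 10.28 and 10.27 in shCtrl arrays. Its log2 fold change was 0.49 ± 0.04 (limma adjusted p = 0.000230), and the groups lay well apart. The second PCNA probe set, which had a mean of 4.34 and did not pass, gave 0.08.

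RFC1, the large subunit of the loader, had 8.61, 8.60 and 8.62 against 8.37, 8.37 and 8.45, and a log2 fold change of 0.21 ± 0.04. Its other probe sets had -0.03 and -0.13 and did not pass. RFC2 had 8.16, 8.28 and 8.18 against 8.04, 8.02 and 8.04 (0.17 ± 0.04). Its call was lost without any one of the 3 shCtrl arrays, at 0.17 to 0.18. RFC3 had 8.87, 8.88 and 8.88 against 8.62, 8.60 and 8.67 (0.25 ± 0.03), and 2 of its 4 probe sets rose. The remaining RFC3 probe sets were dim, with means of 5.03 and 3.33. When the probe sets of each gene were averaged, the RFC1 log2 fold change was 0.017 and the RFC3 log2 fold change 0.10, and neither passed.

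RFC4 (9.68, 9.74 and 9.67 against 9.57, 9.63 and 9.62) had 0.09 ± 0.04 and did not pass, although its groups did not overlap. RFC5 shows how much the choice of probe set can matter. The probe set used had 8.75, 8.78 and 8.68 in shCSF2 and 8.76, 8.80 and 8.79 in shCtrl arrays, with -0.05 ± 0.04. The other 3 probe sets of RFC5 rose, by 0.35, 0.33 and 0.36, at means of 8.23, 7.91 and 7.40. With all 4 averaged, the RFC5 log2 fold change was 0.25 and passed (limma adjusted p = 0.000746).

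**Figure D3:**
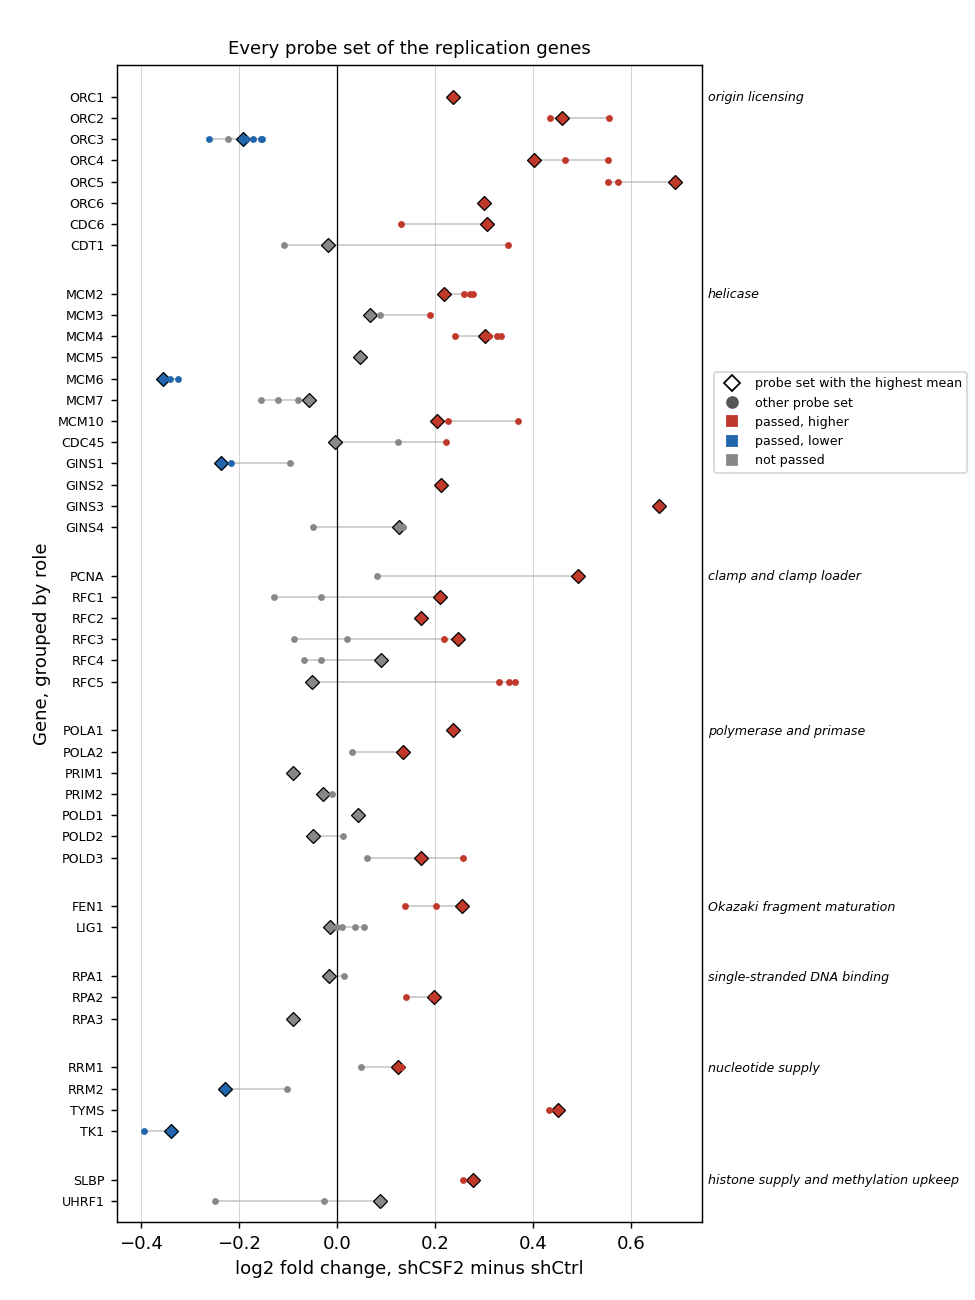
Log2 fold change (shCSF2 minus shCtrl) of all 118 probe sets of the 44 genes; diamonds are the probe sets used, circles the others, red passed as higher, blue as lower and grey did not pass, each tested on its own (GINS4 is therefore grey). In MCM6 and TK1 all probe sets lie to the left, in ORC2, ORC4 and ORC5 all lie to the right, and in RFC5 the diamond (-0.05) lies apart from 3 circles near 0.35.

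Tested one by one, 55 of the 118 probe sets rose and 14 fell (46.6% and 11.9%), where 15.3% and 13.8% of all 49293 probe sets did. The shares over all probe sets include dim ones and were not matched for level. No gene had probe sets that passed in both directions. Of the 34 genes with more than 1 probe set, 11 had all of them higher and 2, MCM6 and TK1, all of them lower. The 11 were ORC2, ORC4, ORC5, CDC6, MCM2, MCM4, MCM10, FEN1, RPA2, TYMS and SLBP. In 4 genes, CDT1, MCM3, CDC45 and RFC5, the probe set used did not pass and another rose. Probe sets of a gene share the same RNA and arrays, so they are not replicates.

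Of 7 polymerase and primase genes 3 rose and none fell, and the median was 0.04. POLA1, the catalytic subunit of polymerase alpha, had 7.58, 7.57 and 7.57 in shCSF2 and 7.35, 7.30 and 7.36 in shCtrl arrays (0.24 ± 0.03). POLA2, its accessory subunit, had 0.13 ± 0.04, and POLD3, an accessory subunit of polymerase delta, 0.17 ± 0.04. The call of POLA2 was lost when any array other than shCtrl replicate 3 was left out, at 0.11 to 0.14. With both its probe sets averaged, the POLA2 log2 fold change was 0.082 and did not pass. POLD3 lost its call without shCSF2 replicate 1 (0.14), shCtrl replicate 2 (0.16) or shCtrl replicate 3 (0.17).

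The primase genes PRIM1 (-0.09 ± 0.04) and PRIM2 (-0.03 ± 0.05) did not pass, and neither did the polymerase delta genes POLD1, the catalytic subunit (0.04 ± 0.04), and POLD2 (-0.05 ± 0.03). The PRIM1 arrays were 8.98, 9.05 and 9.04 against 9.08, 9.08 and 9.17, so the groups did not overlap. The POLD2 groups did not overlap either, with shCSF2 below shCtrl.

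Okazaki fragments are finished by the flap nuclease FEN1 and the ligase LIG1. FEN1 had 9.99, 10.11 and 10.03 in shCSF2 and 9.74, 9.81 and 9.81 in shCtrl arrays, and rose by 0.26 ± 0.04 with all 3 probe sets higher. LIG1 did not pass (-0.01 ± 0.04), by any of its 6 probe sets, which lay between -0.02 and 0.05. Replication protein A coats single-stranded DNA as a trimer. Of its genes RPA2 rose (0.20 ± 0.04, all 3 probe sets), while RPA1 (-0.02 ± 0.04) and RPA3 (-0.09 ± 0.04) did not pass. For RPA3 the shCSF2 arrays still all lay below the shCtrl arrays. The RPA2 arrays were 9.82, 9.82 and 9.86 against 9.63, 9.61 and 9.67.

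Nucleotide supply split evenly. TYMS, which makes thymidylate from scratch, had 10.02, 10.01 and 9.93 in shCSF2 and 9.51, 9.57 and 9.52 in shCtrl arrays. It rose by 0.45 ± 0.04 (limma adjusted p = 0.000261), with both probe sets higher (0.43 and 0.45). TK1, which salvages thymidine, had 8.70, 8.70 and 8.76 against 9.02, 9.08 and 9.07. Its log2 fold change was -0.34 ± 0.04 (adjusted p = 0.000572 by limma), with both probe sets lower (-0.34 and -0.39). Thus the enzyme genes of the 2 routes to thymidylate passed in opposite directions, and for neither did the groups overlap.

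The subunits of ribonucleotide reductase, which turns ribonucleotides into deoxyribonucleotides, also differed. RRM2, the small subunit whose level follows S phase, had 9.63, 9.66 and 9.64 in shCSF2 and 9.87, 9.85 and 9.90 in shCtrl arrays (-0.23 ± 0.03, limma adjusted p = 0.00215). Its second probe set had -0.10 and did not pass. RRM1, the large subunit, had 10.24, 10.28 and 10.23 against 10.14, 10.14 and 10.09, and passed with 0.12 ± 0.03 (limma adjusted p = 0.0325). The call of RRM1 was lost in all 6 fits that left out an array, whether of shCSF2 or shCtrl, at 0.11 to 0.13 and adjusted p from 0.0617 to 0.0922.

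SLBP, which binds the stem-loop of histone messages, had 9.71, 9.76 and 9.70 in shCSF2 and 9.44, 9.47 and 9.43 in shCtrl arrays. It rose by 0.28 ± 0.03, with both probe sets higher. UHRF1, which guides maintenance methylation to new DNA, did not pass (0.09 ± 0.03, limma adjusted p = 0.0858), although its shCSF2 arrays (8.62, 8.63 and 8.59) all lay above the shCtrl arrays (8.53, 8.54 and 8.52).

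Of 62 other genes of the replication pathway with a probe set of their own, 19 rose and 9 fell (30.6% and 14.5%), and the median of their log2 fold changes was 0.04. Over all genes these shares were 16.7% and 16.0%. Of the 62, 56 lay at or above the median gene level, and 18 of these rose and 8 fell, where 28.3% and 22.4% of all genes at that level did; the share that rose was thus near the background. The 9 became 5 without shCtrl replicate 3. Of the 4 subunit genes of polymerase epsilon, POLE2 rose by far the most (2.01 ± 0.06), a 4.02-fold difference, from 6.22, 6.02 and 6.04 in shCtrl to 8.12, 8.11 and 8.08 in shCSF2 arrays. A single probe set reads POLE2, and its rise was the largest among all 18132 genes, so it is not typical of this list. POLE3 rose by 0.14 ± 0.03, and POLE (0.01 ± 0.05) and POLE4 (-0.15 ± 0.05) did not pass.

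Of 11 genes of origin firing 3 rose and 1 fell (27.3% and 9.09%). Among all genes at or above the median gene level these shares were 28.3% and 22.4%. MCMBP, which binds MCM subunits, rose by 0.35 ± 0.03, and its other probe sets by 0.78 and 0.79. TICRR, needed to bring CDC45 to origins, was dim and had -0.27 ± 0.06. Its call was lost without replicate 1 or 3 of shCSF2 (-0.23 and -0.25) and without replicate 1 or 3 of shCtrl (-0.24 and -0.25). GMNN, the gene of the licensing inhibitor geminin, did not pass (-0.0070 ± 0.03) and is named with its value known.

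Of 17 other fork genes 5 rose and 4 fell (29.4% and 23.5%). Both shares were near those of all genes at or above the median gene level (28.3% and 22.4%). TIPIN, a fork protection gene, rose by 0.59 ± 0.06 and all 3 of its own probe sets were higher, by up to 0.65. A brighter probe set that the annotation pairs with TIPIN and other genes together gave a TIPIN log2 fold change of -0.026. RNASEH2A, the catalytic subunit of ribonuclease H2, fell (-0.27 ± 0.03, both probe sets). The checkpoint adaptor gene CLSPN rose (0.46 ± 0.04), as did RNASEH2B by 1 of its 2 probe sets (0.35 ± 0.04, the other -0.11), and both genes are named after their values were seen.

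Of 10 chromatin assembly genes 4 rose and 2 fell (40% and 20%), against 28.3% and 22.4% of all genes at or above the median gene level. The histone chaperone gene ASF1A rose (0.25 ± 0.04) by all 3 probe sets, with 8.07, 8.14 and 8.11 in shCSF2 and 7.88, 7.80 and 7.88 in shCtrl arrays. Its paralogue ASF1B, named after its value was seen, fell (-0.25 ± 0.04) by all 3, with 7.83, 7.93 and 7.94 against 8.15, 8.13 and 8.17. RBBP4, a histone-binding subunit, had -0.31 ± 0.04, and 1 of its 2 probe sets passed.

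Of 20 other nucleotide genes 5 rose and 2 fell (25% and 10%). Both shares were below those of all genes at or above the median gene level (28.3% and 22.4%). UMPS, which makes uridine monophosphate, rose by 0.49 ± 0.03, with 2 of its 3 probe sets higher. CTPS1, which makes CTP, fell by all 4 probe sets (-0.29 ± 0.03), and its shCSF2 arrays all lay below its shCtrl arrays.

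**Figure D4:**
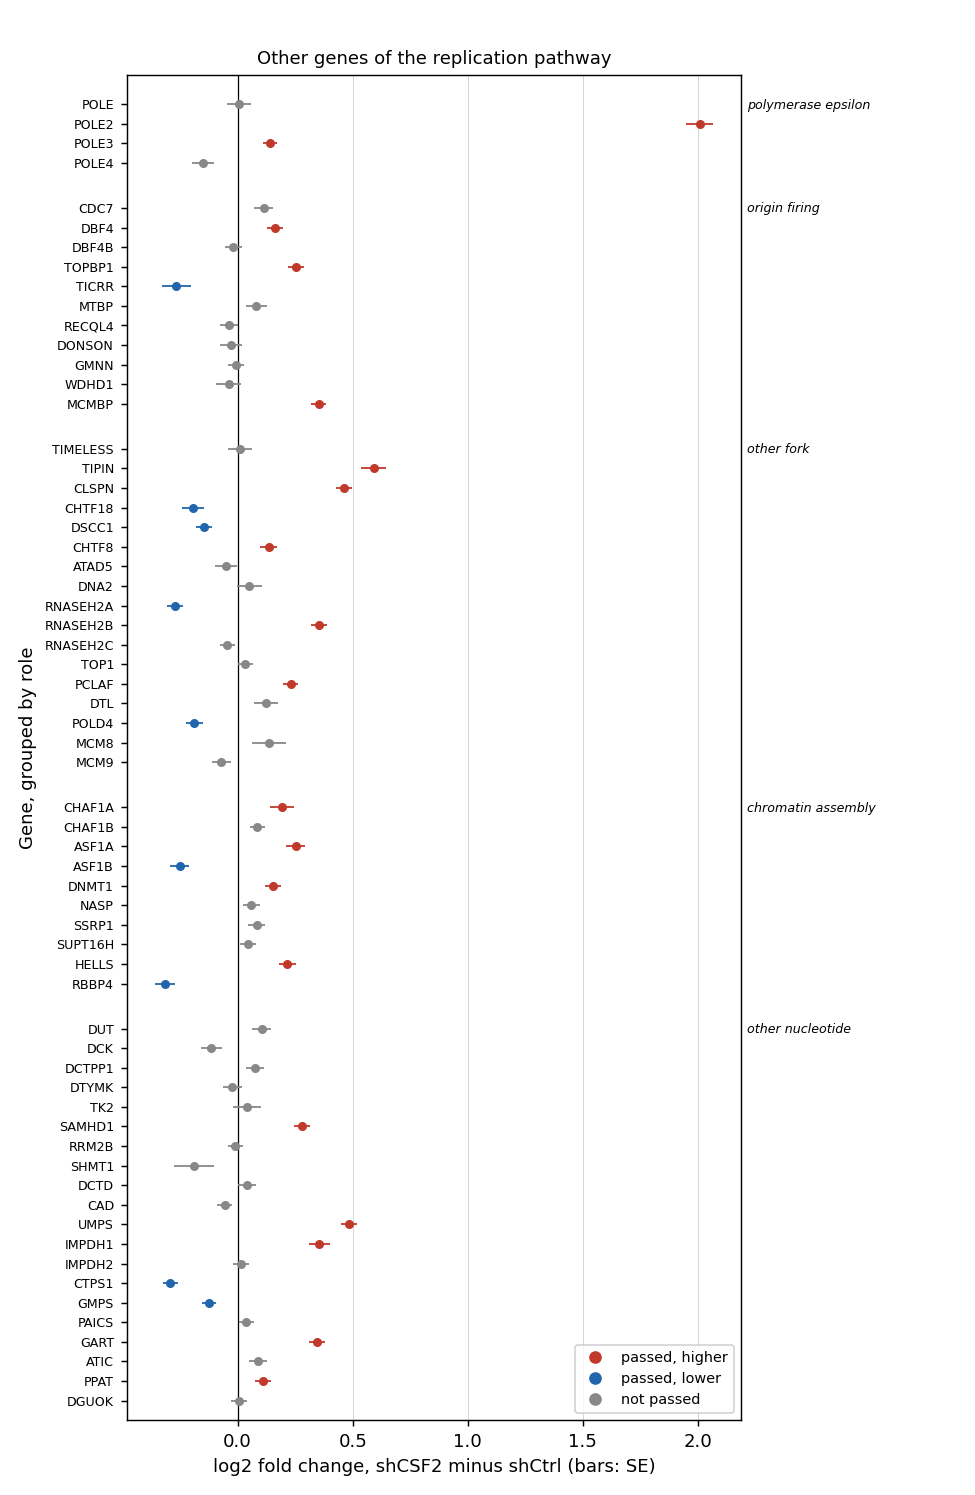
Log2 fold change (shCSF2 minus shCtrl) of 62 other replication pathway genes, grouped by list, with the moderated SE as bars; red passed as higher, blue as lower and grey did not pass. POLE2 stands apart at 2.01, TIPIN and UMPS follow at 0.59 and 0.49, and RBBP4 lies farthest to the left at -0.31.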

How the data were processed

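The authors deposited 1 log2 signal per probe set and array. RMA, the oligo package and limma are named, without versions, per the submitters' processing notes. RMA corrects background, normalizes between arrays and compresses differences at low signal, so the folds of dim probe sets may be understated. Labelled cRNA came from 200 ng of RNA, per the labels' protocols.

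Of 49293 probe sets other than controls, the annotation pairs 44988 with a single symbol and 1832 with several, and leaves 2473 unlisted. The brightest probe set stood for each of 18132 genes. Differences were fitted with lmFit and eBayes of limma 3.58.1 (R 4.3.3), without filter or block, adjusted over all genes by Benjamini-Hochberg at 0.05, and are shCSF2 minus shCtrl with moderated standard errors. Alternatives covered dimness filters, scaling, variance model, array weights, probe set choice, a replicate block and leaving out each array. Steps were tested on simulated data. Figures used matplotlib 3.10.9. The number of arrays limits precision. Array medians lay between 5.77 and 5.79, and no pair of arrays was identical.

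Genes and lists were chosen with earlier results of these data known. Values of every array are given for the passing genes with the largest rise and fall of each role, for all lower genes and for the clamp and nucleotide roles. Outside that rule they are also given for CDC6, CDT1, MCM4, MCM7, CDC45, PRIM1 and UHRF1, and for POLE2, ASF1A and ASF1B of the other pathway genes. Of the other pathway genes, the largest passing rise and fall of each list are named. Promoters shown are those of the largest rise, the largest fall and the first helicase genes with an E2F motif, plus PCNA. Protein sequences were not used here.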

Additional observations from a re-analysis of the deposited data

How the results depend on the processing

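Counts over the 44 genes held within 1.5 times under every alternative: 18 to 26 higher and 4 to 6 lower over dimness filters (mean log2 value of at least 5 or the median), quantile, median and cyclic loess scaling, a robust variance trend, array weights, other choices of probe set and leaving out each array. Of the 29 genes that passed, 23 kept their call in all 6 fits without 1 array and 27 under all 3 scalings. Under every alternative that tested them, 20 kept it. These 20 include GINS3, which the median filter removed and which was therefore not tested under that filter. Among the other pathway genes, fits without 1 array gave 16 to 17 higher and 5 to 9 lower. The choice of probe set turned directions: with the most variable probe set CDT1 had 0.35, CDC45 0.22, RFC5 0.36, GINS4 -0.049 and RFC3 -0.088; with all probe sets averaged CDC45 had 0.11 and RFC5 0.25; with shared probe sets counted TIPIN had -0.026. GINS4 lost its call under quantile and cyclic loess scaling and POLA2 under quantile scaling. Some genes gained a call. MCM3 passed as higher and MCM7 as lower with all probe sets averaged, and MCM3 also with the most variable probe set. RFC4 passed as higher with the median filter and the robust variance trend. PRIM1 passed as lower with that trend, and UHRF1 as higher with it and with both dimness filters. Arrays with the same replicate number had correlations of deviations of 0.03, 0.05 and 0.03. Arrays with different numbers were not compared, so whether the numbers pair the arrays was not settled. With the replicate block 22 genes were higher and 5 lower, and GINS4 and RRM1 lost their calls. The cause of these shifts was not tested. Dim probe sets limit what can be seen for GINS3, MCM5 and the second PCNA probe set.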
